A study of Ovis aries with 15 samples.

Results

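The genes described here encode the enzymes that bring pyruvate into the mitochondrion, burn it in the tricarboxylic acid (TCA) cycle and exchange aspartate, malate and glutamate with the cytosol. The set was defined by name as 35 genes, and each gene was read from the probe sets that carry its symbol and no other, and where a gene had several, the brightest over the 15 arrays on the log2 scale was taken. A probe set was available for 30 of the 35 genes, among 9155 named genes on the array. IDH3B, DLST, MDH1, PDK1 and PDP2 had none and are not described further. Of the 30 genes, 29 were tested because 3 or more arrays gave a signal of 50 or higher. The exception was ME2, a mitochondrial malic enzyme, whose highest signal on any array was 29.8.

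RNA of the longissimus dorsi (LD), the long muscle of the back, was taken from Dorset/Suffolk/Rambouillet cross-bred sheep and hybridised to the Affymetrix bovine genome array, a cattle array with several short probes per transcript. The 5 stages, with 3 animals and 3 arrays each, were fetuses on gestation days 80 (80 d), 100 (100 d) and 120 (120 d), newborns sampled 1 to 3 days after birth (150 d of development) and lambs that were 12 weeks old (230 d). Each stage had its own animals, the labels name no treatment, and by the study's methods all were male except 1 female at 100 d and 1 at 120 d, whose arrays are not identified. No array was taken between 120 d and birth, so the last fetal weeks and the days after birth cannot be told apart within the interval from 120 d to 150 d.

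Pyruvate made by glycolysis enters mitochondria through a carrier of MPC1 and MPC2 and is converted to acetyl-CoA by the pyruvate dehydrogenase (PDH) complex, which PDH kinases switch off by phosphorylation and PDH phosphatases switch on again. Acetyl-CoA from pyruvate and from fatty acids is then oxidised in the TCA cycle, whose electrons feed the respiratory chain. The malate-aspartate shuttle, built on paired cytosolic and mitochondrial forms of malate dehydrogenase and aspartate aminotransferase, carries the reducing power of cytosolic NADH inward, and in muscle it works beside the cycle during sustained contraction.

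Over all arrays the median signal lay between 51.4 and 69.4, and between 50.7% and 58.1% of probe sets reached 50. The ratio of 3′ to 5′ actin probe sets, a sign of RNA integrity, was higher in the younger fetuses. It was 1.88 ± 0.289 (SD, n = 3) at 80 d, 1.03 ± 0.105 at 120 d and 0.907 ± 0.0513 at 150 d. GAPDH probe sets did not show this order. Their 3′ to 5′ ratio had its lowest stage mean in the 80 d fetuses (1.09 ± 0.117) and its highest in the newborns (1.21 ± 0.117). Fibre markers bore out the muscle label, and 12 of the 16 listed had a probe set and were tested. Their summed signal ranged from 100401 to 132694 over the arrays at 80 d, from 145287 to 186849 at 120 d, from 222455 to 348531 at 150 d and from 336944 to 474745 at 230 d. The samples are bulk tissue, in which fewer cells of a type and less RNA per cell cannot be told apart. Levels of different genes come from different probes and are not compared with each other.

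Most genes of the set rose around birth, while none passed the test between neighbouring fetal stages. No gene passed the test, a limma fit over all 15998 tested probe sets with a Benjamini-Hochberg adjusted p under 0.01, from 80 d to 100 d or from 100 d to 120 d. Under a moderated F-statistic, which first asks whether a gene differs anywhere in the series, 8 and 13 genes were higher in these intervals. The share of all probe sets under that statistic was not computed. Between 120 d and 150 d 20 of the 29 genes rose and none fell (12 and none when the added hybridisation controls set the scale), and between 150 d and 230 d 1 fell and none rose. From 120 d directly to 230 d 18 rose and none fell (8 and 2 on the scale of the controls). Of all tested probe sets, 0.106% rose and 0.0188% fell from 80 d to 100 d, and 0.0375% rose and 0.0188% fell from 100 d to 120 d. From 120 d to 150 d 4.41% rose and 6.77% fell, from 150 d to 230 d 0.944% rose and 1.08% fell, and from 120 d to 230 d 5.79% rose and 8.41% fell. These shares are on the authors' scale, and those on the scale of the controls were not computed.

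In the fetal intervals the unadjusted p lay under 0.05 for 2 genes from 80 d to 100 d and for 11 from 100 d to 120 d. The share of all tested probe sets under that unadjusted p was not computed, so these counts cannot be set against the array. From 100 d to 120 d the median log2 fold change of the set was 0.46, against -0.04 over the named genes. Over the whole fetal span, 80 d to 120 d, the fold change was positive for 28 of 29 genes, with a median log2 fold change of 0.63 against -0.03 over the 7546 named genes tested. The 3 arrays at 120 d lay above the 3 at 80 d for 16 of the 29 genes, where 12.5% of all tested probe sets did so. The gene that passed over this span was PDK4, a PDH kinase, for which the fold was at least 4.28 (log2 2.36 ± 0.41 SE, adjusted p = 0.0067), because its mean at 80 d lay under the minimum signal of 50. The 2 other probe sets of PDK4 gave log2 1.29 and 2.04 over this span, each with an adjusted p of 0.052. Over all tested probe sets, 0.931% rose and 0.381% fell over this span. At an adjusted p under 0.05 8 genes were higher at 120 d, where 2.56% of all probe sets were, and these were PDK4, IDH2, PDHA1, SUCLG1, IDH3G, IDH1, MDH2 and MPC2. IDH2 passed at 0.01 in the fits without replicate 1 at 100 d (log2 1.44, adjusted p = 0.0086) or replicate 1 at 150 d (adjusted p = 0.0093), and with array medians set equal (0.0053), an offset of 16 (0.0065), the stricter filter (0.0054), trend and robust variances (0.0012) or quantile normalization (0.0097). The PDK4 call was lost, with an adjusted p of 0.01 to 0.035, in 13 of the 15 fits that left out 1 array, the exceptions being those without replicate 1 or 2 at 150 d, and its log2 fold change stayed between 2.24 and 2.49. It was also lost with array medians set equal (adjusted p = 0.014), hybridisation controls as the scale (0.013), no filter (0.018) or the replicate number as a block (0.016).

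Between 120 d and 150 d the median log2 fold change of the 29 genes was 1.59, with a range from -0.21 to 4.19, while the median over the named genes was -0.08. Of the 29 genes, 20 lay above the 95th percentile of all named genes, which was 1.34. At an adjusted p under 0.05 24 genes were higher, where 8.41% of all tested probe sets were. The 3 newborn arrays lay above all 3 arrays at 120 d for 26 of the 29 genes, or 89.7%, where 14.3% of all tested probe sets did so. All 6 postnatal arrays lay above all 9 fetal arrays for 23 genes, where 6.78% of all tested probe sets did so. The 6 genes whose fetal and postnatal arrays overlapped were ACO1, PDK3, PDP1, PC, PCK2 and ME3.

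**Figure D1:**
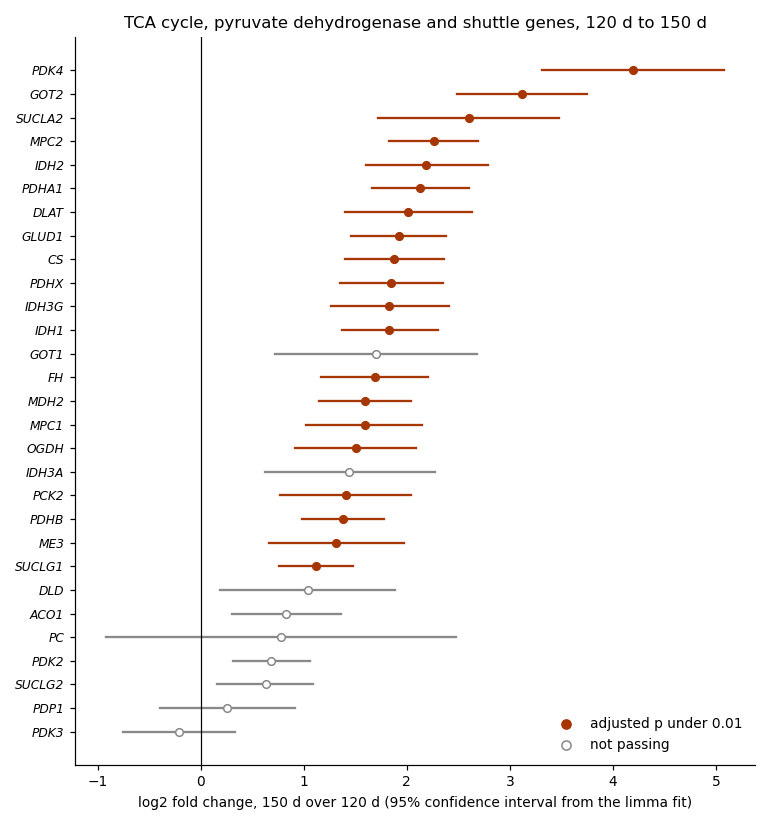
Log2 fold change from 120 d to 150 d (x axis) of each of the 29 tested genes (y axis), with the 95% confidence interval of the limma fit over all 15 arrays. Filled points are the 20 genes with an adjusted p under 0.01 and open points the 9 others, of which PDK3 alone has a negative estimate, -0.21.

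Pyruvate entry was described by 7 tested genes, of which 6 rose between 120 d and 150 d, with a median log2 fold change of 1.85. MPC2, a subunit of the mitochondrial pyruvate carrier, gave signals of 1005, 798 and 673 at 80 d, 823, 706 and 859 at 100 d, 1304, 1524 and 1385 at 120 d, 8018, 6975 and 5406 at 150 d, and 6379, 6003 and 6501 at 230 d. Every newborn and 12-week array lay above every fetal array, and at 150 d the signal was 4.79-fold higher (log2 2.26 ± 0.20 SE, adjusted p = 3.2e-05) than at 120 d. MPC1, its partner subunit, gave 241, 267 and 282 at 80 d, 495, 373 and 333 at 100 d, 618, 625 and 377 at 120 d, 2122, 1534 and 1212 at 150 d, and 1385, 1779 and 1771 at 230 d. It too separated fetal from postnatal arrays without overlap (3-fold higher, log2 1.59 ± 0.26 SE, adjusted p = 0.0012). The log2 difference of MPC2 over MPC1 was 1.41 ± 0.41 (SD, n = 3) at 120 d and 2.09 ± 0.15 at 150 d, and 1.63 ± 0.41 at 80 d, where the arrays overlapped those of 150 d. No difference between the carrier subunits was tested.

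PDHA1, the catalytic alpha subunit of the E1 component and the site at which the kinases act, gave 1032, 891 and 773 at 80 d, 1194, 1238 and 1224 at 100 d, 2204, 1864 and 1520 at 120 d, 10549, 6712 and 7456 at 150 d, and 10925, 9786 and 13265 at 230 d. The newborn arrays lay above all fetal ones (4.39-fold higher, log2 2.13 ± 0.22 SE, adjusted p = 6.7e-05). PDHB, the beta subunit of E1, gave 1589, 1521 and 2145 at 80 d, 2023, 1833 and 1643 at 100 d, 3006, 2258 and 2315 at 120 d, 6673, 6669.8 and 6182 at 150 d, and 5709, 5482 and 6112 at 230 d. The 3 newborn values were close to each other and clear of all fetal values (2.60-fold higher, log2 1.38 ± 0.18 SE, adjusted p = 0.00035). PDHX, which binds the E3 component to the core, gave 403, 454 and 434 at 80 d, 373, 494 and 564 at 100 d, 725, 817 and 809 at 120 d, 3268, 3492 and 1961 at 150 d, and 2737, 3458 and 2912 at 230 d. Its newborn replicate 3 was the lowest of the postnatal arrays and still lay above all 9 fetal arrays (3.60-fold higher, log2 1.85 ± 0.23 SE, adjusted p = 0.00025).

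DLAT, the E2 acetyltransferase that forms the core, gave 288, 369 and 479 at 80 d, 426, 339 and 401 at 100 d, 454, 589.6 and 704 at 120 d, 2483, 2609.9 and 1917 at 150 d, and 1319, 2267 and 1122 at 230 d. The postnatal arrays again stood clear of the fetal ones (4.04-fold higher, log2 2.01 ± 0.28 SE, adjusted p = 0.00048). DLD, the E3 dehydrogenase that PDH shares with the oxoglutarate dehydrogenase complex, was dim, between 27.1 and 108 on the fetal arrays and between 113 and 335 on the postnatal ones, and did not pass the test (2.06-fold higher, log2 1.04 ± 0.39 SE, adjusted p = 0.077). Its log2 fold change had a 95% confidence interval from 0.19 to 1.89.

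**Figure D2:**
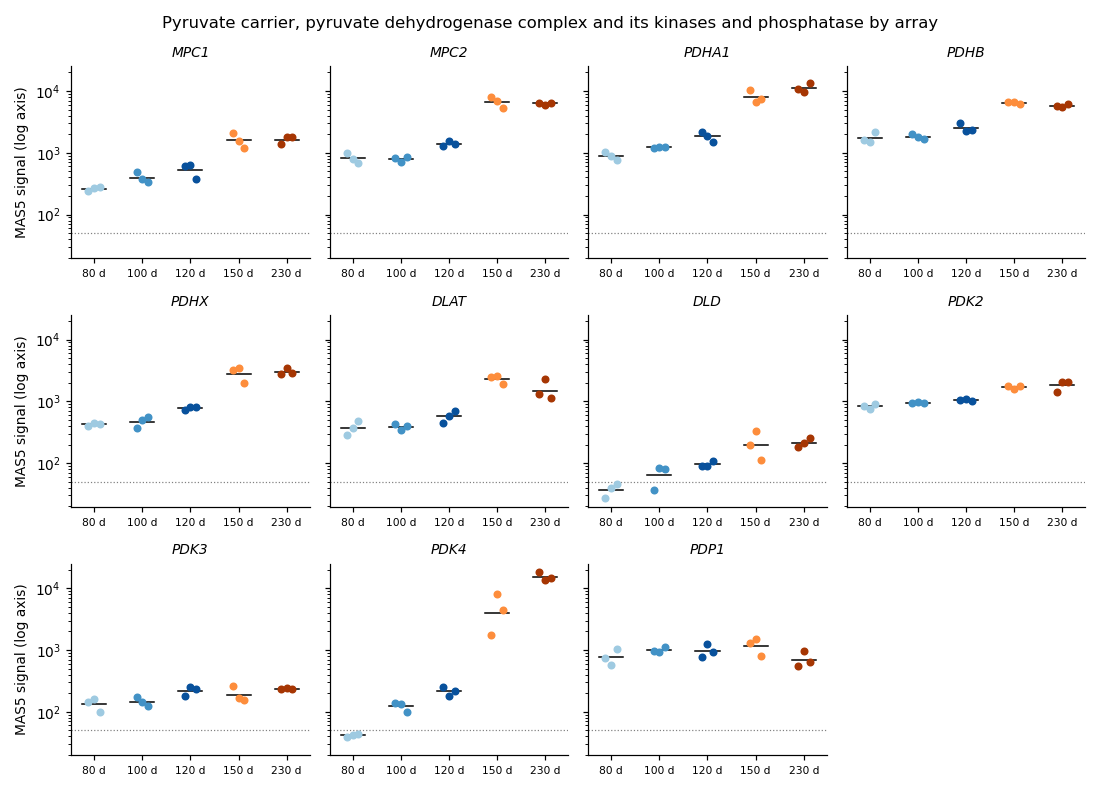
MAS5 signal on a log axis (y) at the 5 stages (x) for the pyruvate carrier, the PDH complex and its kinases and phosphatase. Each point is 1 array, the black line is the geometric mean of the 3 arrays of a stage and the dotted line marks a signal of 50, and PDK4 is the gene whose points climb at every step from about 40 at 80 d to between 13570 and 18110 at 230 d.

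Among the regulators of the complex, 1 of 4 tested genes rose between 120 d and 150 d. PDK4, the kinase isoform known to be induced by fasting and by fat oxidation, gave 39.6, 41.5 and 44 at 80 d, 136, 134 and 98.6 at 100 d, 252, 179 and 216 at 120 d, 1724, 7945 and 4359 at 150 d, and 18110, 13569.8 and 14499 at 230 d. No pair of neighbouring stages overlapped. At 150 d PDK4 was 18.3-fold higher (log2 4.19 ± 0.41 SE, adjusted p = 5.2e-05) than at 120 d, and it ranked 11th among all tested probe sets by log2 fold change. From 120 d to 230 d it was 71.4-fold higher (log2 6.16 ± 0.41 SE, adjusted p = 2.3e-06) and ranked 1st of the 15998, while its other probe sets gave log2 4.61 (adjusted p = 4.5e-06) and 4.44 (adjusted p = 0.00012). Newborn arrays spread widely, from 1724 to 7945, and the step from 150 d to 230 d did not pass (3.91-fold higher, log2 1.97 ± 0.41 SE, adjusted p = 0.014). It passed without the highest newborn array, replicate 2 (log2 2.48, adjusted p = 0.0032), and with an offset of 16 (adjusted p = 0.0072), the stricter filter (0.0071), the mean of all probe sets (0.0034) or trend and robust variances (0.0024). With arrays scaled to the hybridisation controls this step gave log2 1.74 (adjusted p = 0.063).

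PDK2, a kinase isoform widely expressed in muscle, gave 832, 766 and 895 at 80 d, 956, 962 and 949.6 at 100 d, 1051, 1097 and 1026 at 120 d, 1779, 1560.2 and 1765 at 150 d, and 1413, 2049 and 2039 at 230 d. The newborn arrays lay above all fetal ones, but the difference did not pass from 120 d to 150 d (1.61-fold higher, log2 0.68 ± 0.17 SE, adjusted p = 0.014). It passed without replicate 1 at 230 d (adjusted p = 0.0068), and with array medians set equal (0.0067), the stricter filter (0.0073) or trend and robust variances (0.0036). With arrays scaled to the hybridisation controls its log2 fold change was 0.04 (adjusted p = 0.91). From 120 d to 230 d PDK2 was higher (1.71-fold higher, log2 0.77 ± 0.17 SE, adjusted p = 0.006), although arrays scaled to the hybridisation controls turned its sign (log2 -0.11). That call was also lost in 6 of the 15 fits without 1 array, those without replicate 2 at 100 d, replicate 1, 2 or 3 at 120 d, or replicate 2 or 3 at 230 d, where the log2 fold change was 0.68 to 0.80 and the adjusted p 0.01 to 0.025. PDK3, another kinase isoform, gave 143, 160.1 and 98.4 at 80 d, 173, 141 and 126 at 100 d, 180.3, 253 and 229.9 at 120 d, 263, 166 and 155 at 150 d, and 233, 244 and 233 at 230 d. Its stages from 120 d onward overlapped, and the difference between 120 d and 150 d was within the spread between animals on the authors' scale (log2 -0.21 ± 0.25 SE, adjusted p = 0.59). With arrays scaled to the hybridisation controls the log2 fold change of PDK3 was -0.86 (adjusted p = 0.018), which did not pass either.

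The log2 difference of PDK4 over PDK2 on the same arrays was -2.31 ± 0.28 (SD, n = 3) at 120 d, 1.20 ± 1.20 at 150 d and 3.08 ± 0.52 at 230 d, with no overlap between stages. PDP1, the calcium-stimulated phosphatase that reactivates PDH, gave signals between 577 and 1238 on the fetal arrays and between 541 and 1495 on the postnatal ones. No stage of PDP1 stood apart from its neighbours around or after birth, with a log2 fold change of 0.26 ± 0.30 SE (adjusted p = 0.58) from 120 d to 150 d, which was -0.38 when the hybridisation controls set the scale.

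Of the 12 enzymes of the TCA cycle and the isocitrate dehydrogenases, 9 rose between 120 d and 150 d, with a median log2 fold change of 1.64. CS, citrate synthase, which joins acetyl-CoA to oxaloacetate, gave 1617, 1413 and 1354 at 80 d, 1863, 1636 and 1223 at 100 d, 2394, 2584 and 1949 at 120 d, 9237, 8972 and 7266 at 150 d, and 6816, 8005 and 10539.6 at 230 d. Its postnatal arrays were clear of its fetal arrays, and the 2 postnatal stages overlapped each other (3.68-fold higher, log2 1.88 ± 0.22 SE, adjusted p = 0.00016). MDH2, the mitochondrial malate dehydrogenase that closes the cycle and serves the shuttle, gave 3775, 3236 and 3850.3 at 80 d, 4592, 3453 and 3215 at 100 d, 7189, 6446 and 5497 at 120 d, 22280.4, 16007 and 19587 at 150 d, and 18294, 17892 and 23174 at 230 d. Its fetal and postnatal arrays were also separate (3.02-fold higher, log2 1.59 ± 0.20 SE, adjusted p = 0.00028). FH, fumarase, gave 910.4, 914 and 1461 at 80 d, 1313, 1463 and 1472 at 100 d, 1674, 2060.3 and 1136 at 120 d, 4714, 5519 and 5069 at 150 d, and 3427, 3706 and 3992 at 230 d. Its newborn arrays were the highest of all 5 stages (3.23-fold higher, log2 1.69 ± 0.24 SE, adjusted p = 0.00048).

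IDH3G, a regulatory subunit of the NAD-dependent isocitrate dehydrogenase of the cycle, gave 315, 378 and 360.4 at 80 d, 358, 596 and 639.7 at 100 d, 667, 975 and 727 at 120 d, 2389, 3115 and 2875 at 150 d, and 2159.9, 3445 and 2144 at 230 d. Fetal and postnatal arrays did not overlap (3.56-fold higher, log2 1.83 ± 0.27 SE, adjusted p = 0.00056). IDH3A, its catalytic subunit, gave 329 to 676 at 120 d and 921 to 1649 at 150 d and did not pass (2.72-fold higher, log2 1.44 ± 0.38 SE, adjusted p = 0.017). It passed without replicate 1 at 80 d (adjusted p = 0.008), and with an offset of 16, the stricter filter (0.0092), the mean of all probe sets (0.0074) or trend and robust variances (0.0046), and another probe set of the gene passed by itself (log2 1.41, adjusted p = 0.0059). With arrays scaled to the hybridisation controls the log2 fold change of IDH3A was 0.80 (adjusted p = 0.13). OGDH, the E1 component of the oxoglutarate dehydrogenase complex, gave 254, 281 and 211 at 80 d, 306, 276 and 173 at 100 d, 380.3, 284 and 224 at 120 d, 1085, 779 and 654 at 150 d, and 1097, 1146 and 1092 at 230 d. The newborn arrays were above the fetal ones (2.84-fold higher, log2 1.51 ± 0.27 SE, adjusted p = 0.0019), and without replicate 3 at 120 d the adjusted p was 0.011 (log2 1.32).

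Succinyl-CoA synthetase, the step of the cycle that yields a nucleoside triphosphate directly, has an ADP-forming subunit (SUCLA2) and a GDP-forming subunit (SUCLG2) that share the alpha subunit SUCLG1. SUCLA2 gave 418, 785 and 924 at 80 d, 384, 949 and 864 at 100 d, 729, 957 and 1097 at 120 d, 5614, 4851 and 6269 at 150 d, and 3287, 7893 and 5159 at 230 d. Fetal and postnatal arrays did not overlap (6.06-fold higher, log2 2.60 ± 0.41 SE, adjusted p = 0.0009). SUCLG2 gave 478, 702 and 749.5 at 80 d, 695, 869 and 911 at 100 d, 787, 894 and 907 at 120 d, 1484, 1121 and 1414 at 150 d, and 1670.4, 2124 and 1600.1 at 230 d. The 3 newborn arrays lay above those at 120 d, but the difference did not pass (1.54-fold higher, log2 0.63 ± 0.22 SE, adjusted p = 0.054), and its sign turned with arrays scaled to the hybridisation controls (log2 -0.02). The log2 difference of SUCLA2 over SUCLG2 was 0.09 ± 0.19 (SD, n = 3) at 120 d and 2.06 ± 0.12 at 150 d, without overlap.

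SUCLG1 gave 1079.9, 1337 and 1376 at 80 d, 1217, 1514 and 1432 at 100 d, 1995, 2239 and 2235 at 120 d, 4496, 4933 and 4636 at 150 d, and 3681, 4527 and 4084 at 230 d. Its newborn arrays lay close together and clear of all fetal ones (2.18-fold higher, log2 1.12 ± 0.17 SE, adjusted p = 0.00064). SUCLG2 was higher at 230 d than at 120 d (2.07-fold higher, log2 1.05 ± 0.22 SE, adjusted p = 0.0036), a call lost in the 4 fits without replicate 1, 2 or 3 at 120 d or replicate 2 at 230 d (log2 0.93 to 1.09, adjusted p 0.011 to 0.016).

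**Figure D3:**
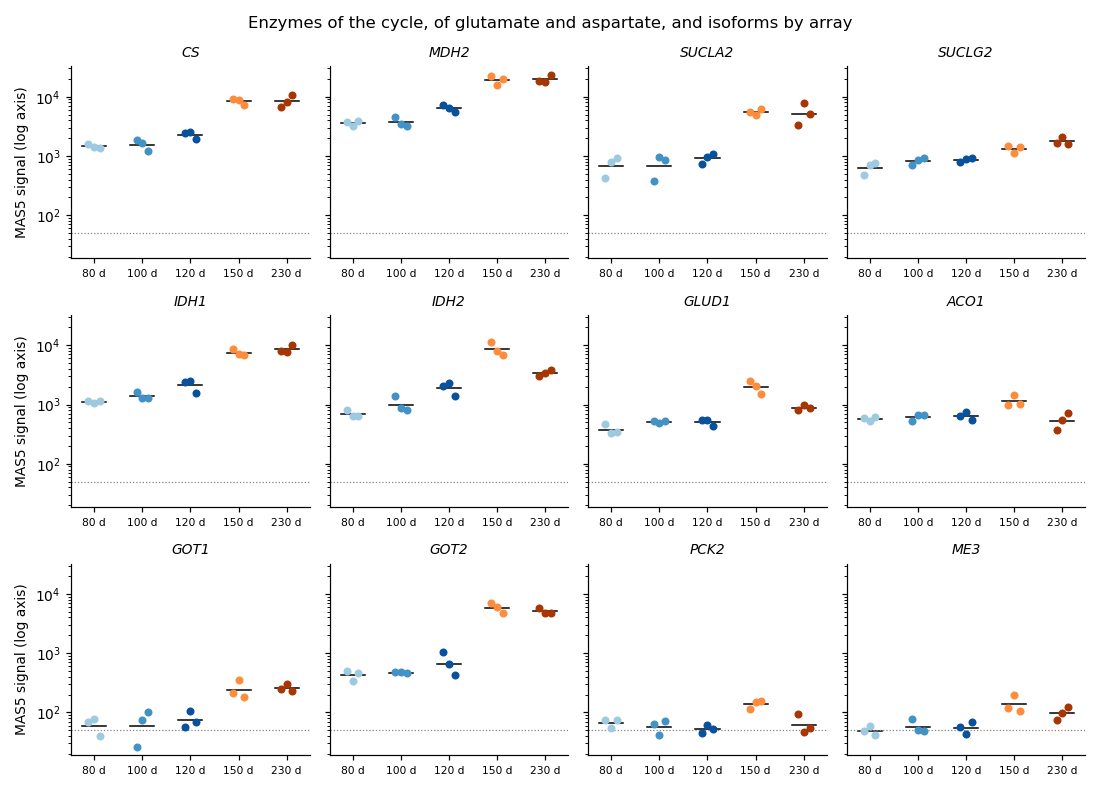
MAS5 signal on a log axis (y) at the 5 stages (x) for 12 enzymes of the cycle, of glutamate and aspartate, and of side branches. Each point is 1 array, the black line is the geometric mean of a stage and the dotted line marks a signal of 50. At 230 d the arrays of CS, MDH2 and SUCLA2 overlap their newborn arrays, while IDH2, GLUD1, ACO1 and PCK2 are lower at 230 d than at 150 d with no overlap of arrays.

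The NADP-dependent isocitrate dehydrogenases, IDH2 in mitochondria and IDH1 in the cytosol and peroxisomes, supply NADPH. IDH2 gave 820.2, 641 and 635 at 80 d, 1383, 868 and 804 at 100 d, 2094, 2319.6 and 1374 at 120 d, 11526, 8044 and 6881 at 150 d, and 3088, 3354 and 3852 at 230 d. It was 4.57-fold higher (log2 2.19 ± 0.28 SE, adjusted p = 0.00025) at 150 d, and the arrays at 230 d then lay between those of 120 d and 150 d. IDH1 gave 1156, 1061 and 1141 at 80 d, 1606, 1271 and 1295 at 100 d, 2388, 2541 and 1542 at 120 d, 8594, 7217 and 6829.5 at 150 d, and 8081, 7579 and 10229 at 230 d. It was 3.56-fold higher (log2 1.83 ± 0.22 SE, adjusted p = 0.00016) at 150 d, and its 230 d arrays overlapped the newborn ones. At the brightest probe set of each, the log2 difference of IDH2 over IDH1 was 0.20 ± 0.21 (SD, n = 3) at 150 d and -1.32 ± 0.13 at 230 d, without overlap. This shift depends on the IDH1 probe set. From 150 d to 230 d IDH2 gave log2 -1.33, and the 2 other probe sets of IDH1 gave -1.43 and -0.73.

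The probe sets of IDH1 disagreed with each other. Its other probe sets gave, at 150 d against 120 d, log2 0.94 (adjusted p = 0.018) and 0.66 (adjusted p = 0.15), neither of which passed. At its brightest probe set, the one used here, the log2 fold change from 150 d to 230 d was 0.19 (adjusted p = 0.65), whereas the other probe sets gave -1.43 (adjusted p = 0.0065) and -0.73 (adjusted p = 0.19). For 120 d to 230 d the brightest probe set gave 2.02 (adjusted p = 6e-05) and the others -0.49 and -0.07. The value for 150 d to 230 d was -0.66 when all probe sets of IDH1 were averaged and -0.04 when the hybridisation controls set the scale. ACO1, the cytosolic aconitase that doubles as an iron-regulatory protein, gave 548 to 747 at 120 d and 997 to 1447 at 150 d and did not pass (1.78-fold higher, log2 0.83 ± 0.25 SE, adjusted p = 0.029).

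Of the 3 shuttle and glutamate genes, 2 rose between 120 d and 150 d. GOT2, the mitochondrial aspartate aminotransferase of the shuttle, gave 506, 333 and 463 at 80 d, 472, 479.9 and 456 at 100 d, 1062, 653 and 428 at 120 d, 6981, 5949 and 4726 at 150 d, and 5713, 4823 and 4687 at 230 d. Its lowest newborn array, 4726, lay above its highest fetal array, 1062 (8.71-fold higher, log2 3.12 ± 0.29 SE, adjusted p = 4e-05), the second largest fold of the set after PDK4. GOT1, the cytosolic aminotransferase, was dim, with 67.5, 78.1 and 40.4 at 80 d, 26.3, 73.6 and 100.4 at 100 d, 56.6, 106 and 68.2 at 120 d, 215, 351 and 185 at 150 d, and 247, 306 and 232 at 230 d. The newborn arrays again lay above all fetal ones, but the difference did not pass (3.24-fold higher, log2 1.70 ± 0.45 SE, adjusted p = 0.018). It passed without replicate 1 at 100 d (adjusted p = 0.0043), and with an offset of 16 (0.0069), the stricter filter (0.0095) or trend and robust variances (0.0076). With arrays scaled to the hybridisation controls its log2 fold change was 1.05 (adjusted p = 0.096). The log2 difference of GOT2 over GOT1 was 3.17 ± 0.92 (SD, n = 3) at 120 d and 4.59 ± 0.47 at 150 d, with overlapping arrays. GLUD1, glutamate dehydrogenase, which feeds glutamate carbon into the cycle as oxoglutarate, gave 462, 336 and 345 at 80 d, 534, 492 and 522 at 100 d, 557, 558 and 441 at 120 d, 2468, 2043 and 1479 at 150 d, and 802, 975 and 873 at 230 d. It was 3.79-fold higher (log2 1.92 ± 0.21 SE, adjusted p = 0.00011) at 150 d, but a second, dimmer probe set of GLUD1 gave a log2 fold change of -0.01 (adjusted p = 0.98).

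The anaplerotic genes, which refill the cycle or draw from it, had low signals. PCK2, the mitochondrial phosphoenolpyruvate carboxykinase, gave 75.1, 53.7 and 74.3 at 80 d, 63.2, 40.9 and 71.3 at 100 d, 45.2, 61.5 and 52 at 120 d, 113, 152 and 156 at 150 d, and 93, 46.4 and 53.8 at 230 d. The newborn arrays stood above all the others (2.65-fold higher, log2 1.41 ± 0.29 SE, adjusted p = 0.0048), and the call was lost in the 4 fits without replicate 1 or 3 at 120 d or replicate 2 or 3 at 150 d (log2 1.30 to 1.40, adjusted p 0.018 to 0.021). ME3, a mitochondrial malic enzyme, gave 49.1, 57.8 and 41.6 at 80 d, 78.7, 49.7 and 47.7 at 100 d, 55.9, 43.7 and 67.7 at 120 d, 118, 200.1 and 107 at 150 d, and 73.3, 98.8 and 124 at 230 d. It rose (2.48-fold higher, log2 1.31 ± 0.30 SE, adjusted p = 0.0083), but in 11 of the 15 fits without 1 array the adjusted p was 0.011 to 0.037, and only without replicate 1 at 100 d, replicate 3 at 150 d or replicate 1 or 3 at 230 d did the call hold. Those 11 fits gave a log2 fold change of 1.03 to 1.46.

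ME2 was under the minimum on every array, between 2 and 29.8, so no fold of it is given. For the same reason no difference of ME3 over ME2 is given. PC, pyruvate carboxylase, varied between 18.3 and 153 over the 15 arrays with no order of stages, and its log2 fold change from 120 d to 150 d was 0.78 (adjusted p = 0.52), or -0.02 without replicate 3 at 120 d.

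After birth most of the set neither rose nor fell past the test. The highest stage mean was at 150 d for 18 of the 29 genes and at 230 d for 11, and the lowest was at 80 d for 25. Of the 20 genes that rose around birth, 11 had a mean signal at 230 d of 80% to 125% of that at 150 d, 6 lay under 80% and 3 over 125%. Neither the stage of the highest or lowest mean nor these bounds were counted over all tested probe sets. GLUD1 was the gene that passed in this interval, 2.22-fold lower (log2 -1.15 ± 0.21 SE, adjusted p = 0.0081), from 1479 to 2468 in the newborn to 802 to 975 at 230 d. Its call was lost, with an adjusted p of 0.01 to 0.03 and a log2 fold change of -1.22 to -0.98, in 13 of the 15 fits without 1 array, the exceptions being those without replicate 1 at 80 d or replicate 3 at 150 d. The second probe set of GLUD1 gave 0.16 (adjusted p = 0.75).

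At an adjusted p under 0.05, IDH2 (log2 -1.33 ± 0.28 SE, adjusted p = 0.014), PCK2 (log2 -1.18 ± 0.29 SE, adjusted p = 0.032) and ACO1 (log2 -1.11 ± 0.25 SE, adjusted p = 0.02) were also lower at 230 d, where 3.21% of all tested probe sets were, and PDK4 was higher, where 3.49% were. Newborn and 12-week arrays did not overlap for these genes, and 6 of the 29 genes had all arrays lower at 230 d, where 9.93% of all tested probe sets did so. The mean at 230 d was 38.9% of the newborn mean for IDH2, 44.3% for GLUD1, 45.8% for PCK2 and 47.4% for ACO1, against 137% for PDHA1 and 329% for PDK4. Over the 29 genes the median log2 fold change of this interval was -0.12, with 12 positive and 17 negative values, and no difference between the genes was tested.

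Against the last fetal stage, 18 of the 29 genes were still higher at 12 weeks on the authors' scale. With the hybridisation controls as the scale 8 were higher and 2 lower, and with only the 6 arrays compared 9 were higher. Of the 29 genes, 22 had an adjusted p under 0.05 from 120 d to 230 d, all higher, where 10.7% of all tested probe sets were, and the arrays of 24 genes did not overlap and were higher at 230 d, where 18.9% of probe sets were. PDHA1 reached 6.10-fold higher (log2 2.61 ± 0.22 SE, adjusted p = 1.1e-05). GOT2 reached 7.58-fold higher (log2 2.92 ± 0.29 SE, adjusted p = 3.7e-05). OGDH, whose 3 arrays at 230 d all exceeded the newborn ones, reached 3.84-fold higher (log2 1.94 ± 0.27 SE, adjusted p = 0.00029). Genes that had passed at 150 d and did not pass against 120 d at 230 d were IDH2, with a log2 fold change of 0.86 (adjusted p = 0.036), GLUD1, with 0.77 (adjusted p = 0.018), PCK2, with 0.23 (adjusted p = 0.6), and ME3, with 0.81 (adjusted p = 0.064). SUCLG2 and PDK2 were past the test here and not at 150 d. FH lost its call without replicate 3 at 120 d (log2 0.99, adjusted p = 0.012) or replicate 3 at 230 d (1.18, adjusted p = 0.011). DLAT lost its call without replicate 1 (1.22, adjusted p = 0.017) or 2 (1.40, adjusted p = 0.012) at 120 d or replicate 2 at 230 d (1.09, adjusted p = 0.014).

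Other probe sets with the same symbol were present for 15 of the 30 genes, 23 probe sets in all, of which 16 for 12 genes passed the signal minimum. From 120 d to 150 d 15 of the 16 had the sign of the probe set used, 11 passed as higher and none as lower. PDK4 is measured by 2 further probe sets, which gave log2 fold changes of 2.67 (adjusted p = 0.00026) and 2.27 (adjusted p = 0.0091) from 120 d to 150 d, smaller than the 4.19 of the brightest. From 150 d to 230 d they gave 1.94 (adjusted p = 0.0059) and 2.17 (adjusted p = 0.03). GOT2 (2.85, adjusted p = 1.7e-05), CS (2.04, adjusted p = 0.00024) and FH (1.24, adjusted p = 0.00064) also had a second probe set that passed, as did PDHA1 and DLAT with 2 each.

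Neighbouring pathways were read from lists of named genes, beside 4.41% of all tested probe sets rising and 6.77% falling from 120 d to 150 d. Of 28 tested genes of the TCA cycle, its carriers and pyruvate metabolism outside the set, 14 rose and none fell from 120 d to 150 d, with a median log2 fold change of 1.08. The largest were NNT, the nicotinamide nucleotide transhydrogenase (log2 1.96 ± 0.20 SE, adjusted p = 7.3e-05), ME1, the cytosolic malic enzyme (1.91 ± 0.32 SE, adjusted p = 0.0014), SLC25A11, the oxoglutarate carrier of the shuttle (1.86 ± 0.22 SE, adjusted p = 0.00017), and LIAS, which makes the lipoyl group of the dehydrogenase complexes (1.65 ± 0.24 SE, adjusted p = 0.00056). All 4 subunits of succinate dehydrogenase, outside the set by name, rose, by 0.81 to 1.47. Respiratory complex I rose at 31 of 37 subunits (median 1.49), fatty acid oxidation at 13 of 21 genes (median 1.21) and glycolysis at 5 of 14 (median 0.87), with none lower, LDHA and LDHB being counted both in glycolysis and among the pyruvate genes. Of 17 listed regulators of mitochondrial biogenesis 9 were tested, and none passed the limma test (3 at an unadjusted p under 0.05), with a median of 0.14. Negative estimates were SIRT1 at -1.47 (adjusted p = 0.031), PPARG at -0.76, NRF1 at -0.32 and PPARGC1A at -0.25 (adjusted p = 0.45). Positive ones were POLG at 0.14, SIRT3 at 0.23, PPARD at 0.63, TFB1M at 0.64 and TFB2M at 0.90 (adjusted p = 0.18).

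From 80 d to 120 d the lists stood in another order. Glycolysis had 6 of 14 genes higher (median 0.97), against 1 of 29 in the set (median 0.63), 5 of 28 for the other TCA and pyruvate genes (median 0.36), 1 of 37 complex I subunits (median 0.58) and 1 of 21 fatty acid oxidation genes (median 0.53). LDHA passed here and is counted both in glycolysis and among the pyruvate genes. Of all tested probe sets, 0.931% rose and 0.381% fell over this span. From 150 d to 230 d the other TCA and pyruvate genes had 2 higher and 1 lower, glycolysis 2 lower, complex I 1 lower and fatty acid oxidation none (5 at an unadjusted p under 0.05). In that interval 0.944% of all tested probe sets rose and 1.08% fell. Differences between the lists were not tested.

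**Figure D4:**
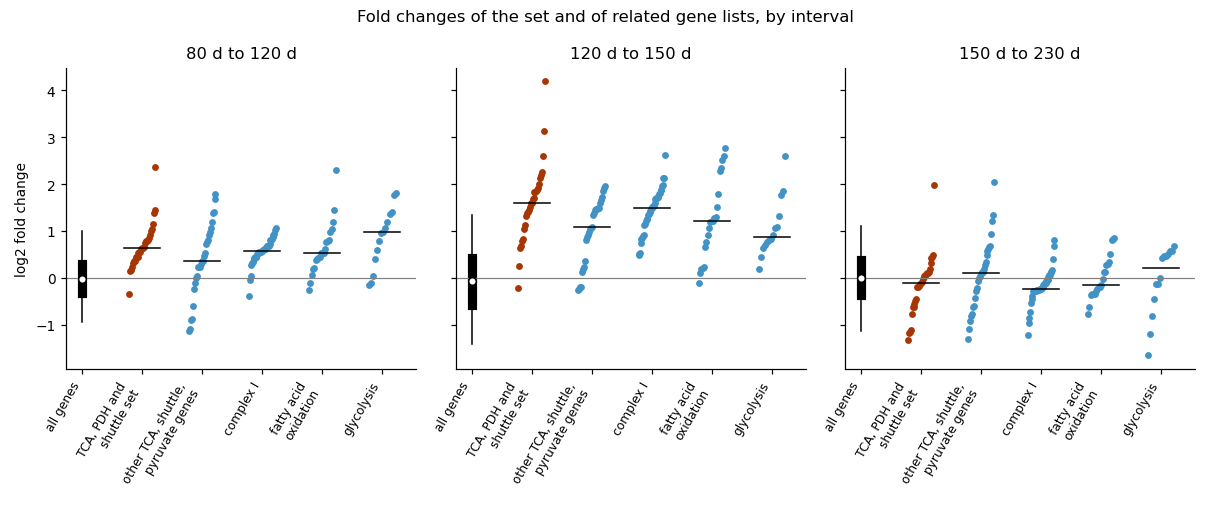
Log2 fold change (y) of single genes in 3 intervals (panels) for the set and for 4 related lists (x), with a horizontal line at each list's median. The leftmost bar of each panel gives all 7546 named genes as the 5th to 95th percentile (line), 25th to 75th percentile (box) and median (dot), and from 120 d to 150 d the medians of the set (1.59) and complex I (1.49) lie above the 95th percentile (1.34).

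Some markers of cell types changed in the same interval as the set, in which 4.41% of all tested probe sets rose and 6.77% fell. From 120 d to 150 d muscle fibre markers rose at 3 of 12 genes (median log2 0.72). These were MB, which encodes myoglobin (2.46, adjusted p = 0.00093), PYGM (1.84, adjusted p = 0.00025) and ATP2A1 (1.18, adjusted p = 0.0013). Endothelial markers fell at 4 of 9 (summed signal 6475 to 7422 at 120 d and 2425 to 4362 at 150 d), fibroblast markers at 3 of 9 (74651 to 75298 and 46435 to 75447) and leukocyte markers at 1 of 6 (532 to 639 and 417 to 580.0). The leukocyte gene was CD3D, whose mean was 50.4 at 120 d and 13.2 at 150 d, the latter under the minimum signal of 50. Erythroid markers fell at 3 of 6 (HBB, HBG and ALAS2), with a summed signal of 13432 to 14398 at 120 d and 587 to 1297 at 150 d. Most of the sum at 120 d was HBB, a globin gene whose mean was 12500 at 120 d and 249 at 150 d. HBA (log2 -0.01), AHSP (-0.27) and HBM (-1.49, adjusted p = 0.26) did not pass. Adipocyte markers rose at 1 of 5 (380.3 to 963 and 1025 to 1746), and none of 3 satellite cell and myoblast markers passed (805 to 1210 and 630.4 to 971, with 0 at an unadjusted p under 0.05). The part of cell composition, of the actin ratio and of sex in the results was not tested.

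The array scaling also moved with stage. Signals of the hybridisation controls, RNAs added to every sample before hybridisation, averaged 10.2 ± 0.114 (SD, n = 3) on the log2 scale at 120 d, 10.9 ± 0.301 at 150 d and 11.1 ± 0.195 at 230 d after the authors' scaling. With these controls as the scale, the median log2 fold change over every tested probe set moved from -0.15 to -0.80 from 120 d to 150 d and from -0.06 to -0.94 from 120 d to 230 d. On that scale 12 genes of the set rose and none fell from 120 d to 150 d, namely PDK4 (log2 3.55), GOT2 (2.48), SUCLA2 (1.95), MPC2 (1.61), IDH2 (1.55), PDHA1 (1.49), DLAT (1.37), GLUD1 (1.27), CS (1.23), PDHX (1.20), IDH1 (1.19) and MDH2 (0.95). From 120 d to 230 d 8 rose, and ACO1 (-1.15, adjusted p = 0.0099) and PDP1 (-1.37, adjusted p = 0.0047) fell. The shares of all tested probe sets that passed on that scale were not computed.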

How the data were processed

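The intensity values used were the probe set signals deposited in the series matrix, which the authors made from the array images with MAS5 (version not given in the sources used here), with background correction, a Tukey biweight over the probes and scaling of every array to the same mean, 200. As deposited, trimmed means (2% at each end) were 197.8 to 198.7. GEO's platform annotation gave 1 symbol for 13292 probe sets, several for 86 and none for 10638, and the 112 control probe sets were left out. The number of arrays, 3 per stage, limits the precision.

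Signals under 0.1 (2 values) were set to 0.1 and log2 values were fitted with limma 3.58.1 (lmFit and eBayes, R 4.3.3) over the 15 arrays with stage as the only term and 10 residual degrees of freedom. A probe set was tested where 3 or more arrays reached a signal of 50, which left 15998 of 24016. P-values were Benjamini-Hochberg adjusted over all of them within each interval, with a threshold of 0.01 as in the study's methods, which used a moderated F-statistic. The study also filtered genes by the convergence of calls over MAS5, RMA and GC-RMA data and by MAS5 Present calls. Neither filter was applied here. A fold against a stage whose geometric mean lay under 50 is given as a lower bound against 50. Values of every array are given for the genes that passed in a neighbouring interval, at most 20, for the PDH kinases and for the isoform pairs. Of each related list at most 4 genes that passed are named, by size of change. The SDH subunits, MB, PYGM, ATP2A1, CD3D, the erythroid markers and the regulators of mitochondrial biogenesis were named after their values were seen. The genes of the set, the lists and the markers were chosen with earlier results of these data known.

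The replicate numbers of the labels name different animals and were not used as a pair. The fit was tested on simulated data first. Alternatives were 4 other scalings, an offset of 16, no filter and a stricter one of 100, the mean of all probe sets of a gene, trend and robust variances, only the 6 arrays compared, the moderated F-statistic, a threshold of 0.05, the replicate number as a block and leaving out each array in turn. Promoter and protein sequences were not analysed here. Plots were drawn with matplotlib 3.10.9 under Python 3.11.15.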

Additional observations from a re-analysis of the deposited data

How the results depend on the processing

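With 3 arrays per stage, the fits rest on a spread shared by all 5 stages. The count of 20 genes higher from 120 d to 150 d was 18 to 23 with array medians set equal, quantile normalization, arrays scaled without the 100 brightest probe sets, an offset of 16, no filter, a stricter filter, the mean of all probe sets, or trend and robust variances, and 24 at an adjusted p under 0.05 and 25 with the moderated F-statistic. It was 12 when the hybridisation controls set the scale and 0 with only the 6 arrays compared, where 20 genes had an adjusted p under 0.05, 26 an unadjusted p under 0.05 and the lowest adjusted p was 0.012. The 18 genes from 120 d to 230 d became 10 (8 higher and 2 lower) and 9 under these same settings. From 80 d to 100 d and from 100 d to 120 d the count of 0 became 8 and 13 with the moderated F-statistic, which first asks whether a gene differs anywhere in the series, and stayed 0 in every other alternative. From 150 d to 230 d the mean of all probe sets lost GLUD1 (-0.49) and called PDK4 (2.03, higher), and the count of 1 was 2 with medians set equal, 0 with quantile normalization, hybridisation controls, no filter or only the 6 arrays compared, 3 with the offset or the stricter filter, 4 with trend and robust variances, and 5 at an adjusted p under 0.05 or with the moderated F-statistic. From 80 d to 120 d the count of 1 held with array medians set equal, where IDH2 passed in place of PDK4, and was 0 with hybridisation controls or no filter, 2 with the offset, 3 with quantile normalization or the stricter filter, and 8 with trend and robust variances or at an adjusted p under 0.05. Leaving out 1 array gave 17 to 21 genes from 120 d to 150 d, 15 to 19 from 120 d to 230 d, 0 to 1 from 150 d to 230 d and 0 to 2 from 80 d to 120 d, and 0 in both neighbouring fetal intervals, and 17 of the 20 genes higher at 150 d kept the call in all 15 of these fits. Signs turned with arrays scaled to the hybridisation controls for SUCLG2 (-0.02) and PDP1 (-0.38) from 120 d to 150 d, IDH1 (-0.04) from 150 d to 230 d and PDK2 (-0.11) from 120 d to 230 d, for IDH1 from 150 d to 230 d also with the mean of all probe sets (-0.66), and for PC from 120 d to 150 d without 120 d replicate 3 (-0.02, the lowest of its fits without 1 array, which reached 1.40). The causes were not tested. Same-numbered arrays of different stages deviated together only weakly (r from -0.05 to 0.21 over 30 pairs, 9 of 15 arrays correlating best with an array of their own number), and the replicate number as a block gave 19 genes from 120 d to 150 d, 19 from 120 d to 230 d, 1 from 150 d to 230 d, 0 from 80 d to 120 d, and 0 in both neighbouring fetal intervals.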
